A study of Homo sapiens with 8 samples.

Results

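The 10 genes described here encode enzymes that build purine and pyrimidine nucleotides from small precursors. They are PPAT, GART, PFAS, PAICS, ADSL and ATIC, which lead to inosine monophosphate (IMP), IMPDH2 and GMPS, which carry IMP on to guanosine monophosphate (GMP), and CAD and UMPS, which build uridine monophosphate (UMP). They were taken by symbol and not by any measured value, but with earlier results of these data known. All 10 were found by Ensembl identifier in both tables of the series, among 25431 genes listed for 769-P cells and 24190 listed for CAKI-1 cells (27776 genes in either table), and all 10 passed the filter on low values.

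RNA was sequenced from 769-P and CAKI-1, established human cell lines labelled as clear cell renal cell carcinoma, to ask how their transcripts respond to the branched-chain amino acids (BCAA). Each line was held for 16 h either without BCAA or with BCAA at 0.38 mM leucine, 0.38 mM isoleucine and 0.17 mM valine. Before the treatment 769-P had been grown in RPMI medium and CAKI-1 in MEM. The lines thus differ in earlier growth medium as well as in origin. The paper describes its BCAA-depleted medium as RPMI made up from amino acid-free powder with dialyzed serum, and names no other for CAKI-1. No introduced gene, engineered deletion or drug is named for these samples. There were 2 libraries for each of the 4 groups, 8 in all, while the study's own description of this experiment gives another number of replicates, and nothing in the labels says whether the libraries of a group came from separate cultures, so each p-value measures only the spread between these libraries.

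Cells make purines either anew, by assembling the ring stepwise on phosphoribosyl pyrophosphate (PRPP) with nitrogen from glutamine, glycine and aspartate and carbon from formyl folate, or by salvaging free bases and nucleosides. Pyrimidines are assembled as a ring first and joined to PRPP afterwards. In many proliferating cells the transcription factors MYC and ATF4 and the leucine-sensing mTORC1 kinase, which acts on CAD through S6 kinase, are known to raise the supply of nucleotides.

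Values are normalized reads per gene, that is reads divided by a size factor for each library. Between 30979773 and 64256834 reads per library lay on listed genes. In 769-P this came to 64256834 and 55829324 reads with BCAA but only 39062721 and 40130258 without it, so depth and condition go together in that line. Of 8 renal and clear cell carcinoma markers, PAX8, KRT8, KRT18 and VIM were present in both lines, with PAX8 between 14547 and 23271 normalized reads in 769-P and between 8700.3 and 10739 in CAKI-1. PAX2 was listed only for 769-P and CA9, a marker of clear cell carcinoma, for neither line. NDUFA4L2, another, held 1 to 3 reads in 769-P and MME 2 to 24 reads in CAKI-1. In CAKI-1 4 of the 6 tested were lower with BCAA (VIM, KRT18, NDUFA4L2 and MME, with VIM at a log2 fold change of -0.65), and in 769-P 1 of 7 was lower (PAX8, -0.64) and 2 higher (PAX2 and KRT8), and their part in the results was not tested. Markers of blood and endothelium were not listed or reached at most 12 reads in a library. Of 3 fibroblast markers PDGFRB alone exceeded 42 reads in any library, and it was higher with BCAA in both lines. The 3 summed to between 153.1 and 153.9 normalized reads with BCAA and 33.5 and 52.6 without in 769-P, and to between 1202 and 1634 with BCAA and 951 and 970.3 without in CAKI-1, with PDGFRA at 0 to 4 reads. Their part in the results was not tested.

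The first enzyme, PPAT, and the fourth, PAICS, are neighbours on chromosome 4 and are read in opposite directions. Between their nearest RefSeq start sites lie 136 bases, which is why their shared start region is shown. The first sequence is the stretch between the start sites of PPAT (reverse strand, first base 56435615) and PAICS (forward strand, first base 56435752), at chr4:56435616-56435751 on the forward strand of GRCh38.p14, from RefSeq. Its capitals mark GGGCGG, the letters of a GC box. The second lies just inside PAICS, at chr4:56435780-56435809, and its capitals mark CACGTG, the letters of an E-box, the motif to which MYC and MAX are known to bind. The third is from the start region of ATIC, at chr2:215312001-215312030 on the forward strand, with the same letters in capitals.
PPAT-PAICS stretch: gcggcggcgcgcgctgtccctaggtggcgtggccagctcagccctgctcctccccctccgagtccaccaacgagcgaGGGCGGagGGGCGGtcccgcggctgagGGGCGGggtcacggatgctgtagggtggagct
PAICS E-box: ctgtatttgctgCACGTGgaaatctccgtt
ATIC E-box: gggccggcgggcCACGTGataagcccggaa

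Start windows, from 250 bases before to 50 bases after a start site, were given by RefSeq for 8 of the 10 genes. Both strands were searched. CACGTG was found in the windows of 3 of these 8 genes (PPAT, PAICS and ATIC), and in those of 8.77% of the 27305 genes with a window. PPAT and PAICS share 1 occurrence, 40 bases after the PAICS start used here. In ATIC the occurrence shown lies 46 bases before the start, and another, not shown, lies 29 bases after it. GGGCGG was found for 7 of the 8 (all but UMPS) and for 48.3% of all genes. TGATGNAA, the letters of the amino acid response element bound by ATF4, was found for 0 of the 8 and for 4.46% of all genes. TTTNGCGC, an E2F site, was found for GART alone (2.17% of all genes), and CCAAT for CAD and GART (39.7%). A match is a description of these letters and not of a bound site.

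With BCAA, 5 of the 10 genes were higher in 769-P (PPAT, PFAS, PAICS, GMPS and UMPS) and 2 were lower (IMPDH2 and CAD), called with limma at a Benjamini-Hochberg adjusted p of 0.05. Of the 22391 genes tested in that line, 20.3% were higher and 18.2% lower, and of the 7354 with a mean of at least 1000 normalized reads, the level of all 10 enzymes, 38.6% were higher and 31.1% lower. In CAKI-1 6 of the 10 were higher (PPAT, GART, PFAS, PAICS, CAD and UMPS) and 2 were lower (ADSL and IMPDH2). Here 10.8% of 21347 genes were higher and 9.05% lower, or 23.2% and 16.8% of the 6579 genes with a mean of at least 1000. Set beside genes of like level, the 5 higher in 769-P and the 2 lower in CAKI-1 lay near the share. The 2 lower in 769-P lay near the share among all genes and under that among genes of like level. The median log2 fold change of the 10 was 0.19 in 769-P and 0.25 in CAKI-1, against -0.02 and -0.01 over all genes tested.

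PPAT, PFAS, PAICS and UMPS were called higher in both lines and IMPDH2 lower in both, while CAD was lower in 769-P and higher in CAKI-1. At this threshold GMPS was called in 769-P alone, GART and ADSL in CAKI-1 alone, and ATIC in neither, but these calls by line depend on the setting, as given with each gene. The libraries with and without BCAA did not overlap for any of the 10 in either line, 7 lying above and 3 below in each. Of all genes tested, 33.6% lay above and 33.5% below without overlap in 769-P, and 28.9% and 28.8% in CAKI-1. Of the genes with a mean of at least 1000, the groups were apart either way for 87.2% in 769-P and 74.9% in CAKI-1. Since these are bulk samples, fewer cells with a transcript and less of it per cell cannot be told apart.

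**Figure D1:**
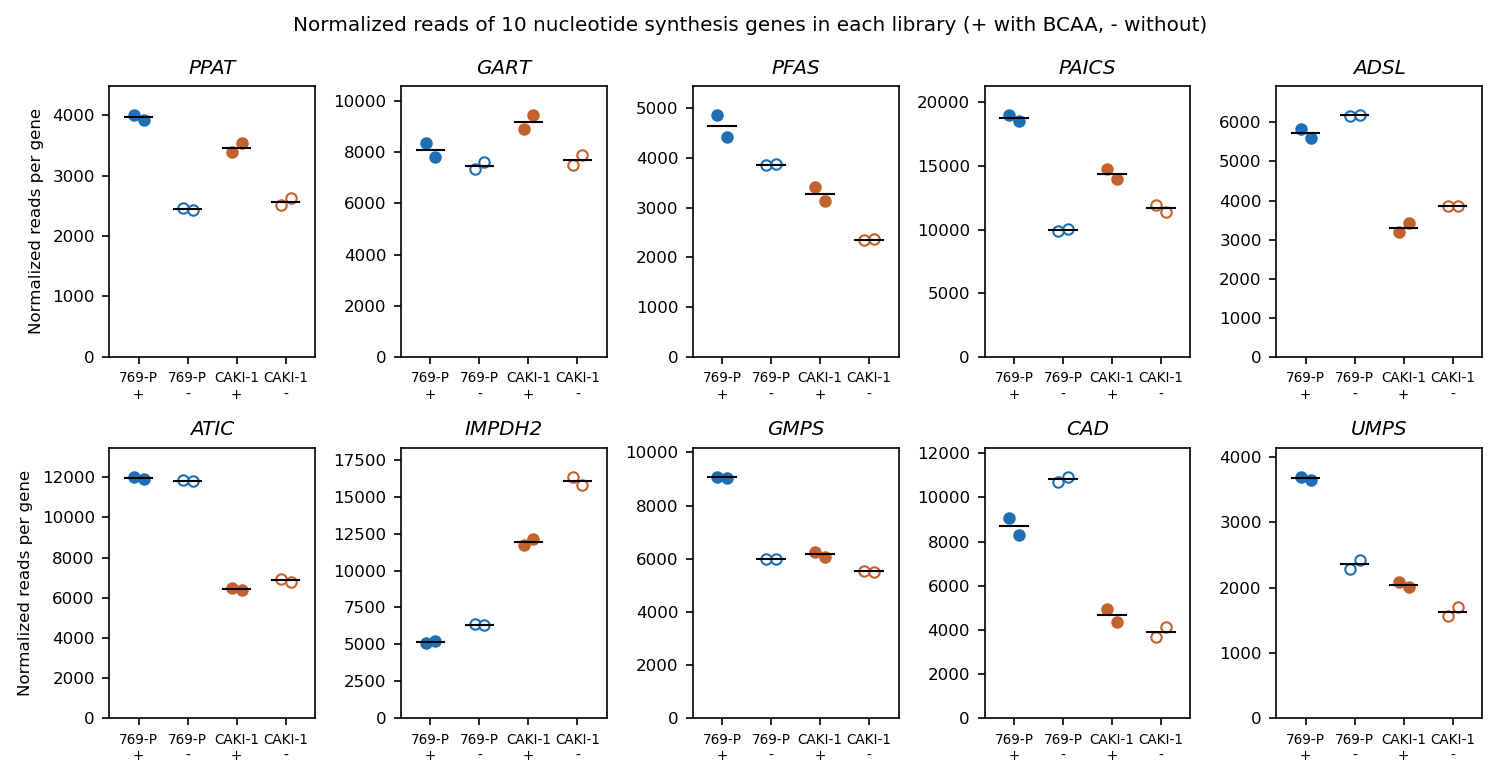
Normalized reads (linear axes from 0) of each of the 10 genes in the 8 libraries, 2 points per group, filled with BCAA and open without, with the mean as a bar. PAICS in 769-P lies at 18525 and 19005 with BCAA against 9908 and 10071 without, while ATIC lies between 11799 and 12037 in all 4 libraries of that line.

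PPAT (ENSG00000128059; GRCh38 chromosome 4, 56393362 to 56435615, reverse strand) encodes the amidotransferase that commits PRPP to purine synthesis. In 769-P it held 4006 and 3924 normalized reads with BCAA and 2459 and 2429 without. In CAKI-1 it held 3392 and 3544 with BCAA and 2511 and 2626 without. Both libraries with BCAA lay well above both without in each line. The fitted log2 fold change was 0.70 (SE 0.05, adjusted p = 4.9e-07) in 769-P and 0.43 (SE 0.06, adjusted p = 6.7e-04) in CAKI-1, or 1.62-fold and 1.35-fold. A processed pseudogene, PPATP1, held up to 274 reads in a 769-P library and 183 in a CAKI-1 library. Adding the reads of such copies to PPAT changed the call in neither line.

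GART (ENSG00000159131; chromosome 21, 33503931 to 33543491, reverse strand) carries several early steps in 1 protein and takes up the first formyl group. Its 769-P libraries held 8362 and 7816 normalized reads with BCAA and 7352 and 7613 without. Its CAKI-1 libraries held 8925 and 9458 with BCAA and 7516 and 7897 without. The gap was narrow in 769-P, where the log2 fold change was 0.11 (95% CI 0.01 to 0.22, adjusted p = 0.092), and wider in CAKI-1 at 0.25 (SE 0.06, adjusted p = 0.0097). With edgeR on the recovered reads GART was called higher in 769-P as well (adjusted p = 0.032), and with quantile normalization its CAKI-1 call was lost. The exons of GART share 275 bases, 3.55% of their length, with those of SON on the opposite strand, which held up to 23906 reads in a library, and whether the counting used strand is not given in the sources used here.

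PFAS (ENSG00000178921; chromosome 17, 8247618 to 8270491, forward strand) adds the second glutamine nitrogen. It held 4863 and 4418 normalized reads with BCAA in 769-P and 3859 and 3874 without, and 3415 and 3140.3 with BCAA in CAKI-1 against 2358 and 2360.1 without. The libraries without BCAA agreed closely in both lines, and those with BCAA were more spread but higher. PFAS rose by a log2 fold change of 0.26 (SE 0.06, adjusted p = 0.0025) in 769-P and of 0.47 (SE 0.07, adjusted p = 5.1e-04) in CAKI-1. Without 769-P with BCAA replicate 1 the 769-P value was 0.19 and was no longer called (adjusted p = 0.054 with the spread of the other 7 libraries).

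PAICS (ENSG00000128050; chromosome 4, 56435741 to 56464579, forward strand) carries the carboxylation of the ring and the joining of aspartate to it. It was the most strongly affected of the 10 in 769-P, with 19005 and 18525 normalized reads with BCAA against 9908 and 10071 without. In CAKI-1 it held 14723 and 14002 with BCAA and 11942 and 11394 without. The 769-P libraries thus formed distant pairs, and the CAKI-1 pairs lay closer together without overlapping. The log2 fold change was 0.91 (SE 0.04, adjusted p = 6.9e-09), or 1.88-fold, in 769-P and 0.30 (SE 0.06, adjusted p = 0.0031), or 1.23-fold, in CAKI-1. A processed pseudogene, PAICSP4, held up to 1653 reads in a 769-P library, and with the reads of such copies added to PAICS the values were 0.91 and 0.29.

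ADSL (ENSG00000239900; chromosome 22, 40346500 to 40390463, forward strand), the lyase that releases fumarate both on the way to IMP and on the way from IMP to AMP, had the opposite sign. It held 5843 and 5599 normalized reads with BCAA and 6172 and 6189 without in 769-P. The CAKI-1 libraries held 3185 and 3422 with BCAA and 3863 and 3857 without. Libraries with BCAA were the lower ones in each line. This gave a log2 fold change of -0.11 (95% CI -0.21 to -0.01, adjusted p = 0.08) in 769-P and -0.23 (SE 0.06, adjusted p = 0.026) in CAKI-1. ADSL was called lower in 769-P with quantile normalization and with median centring, and its CAKI-1 call was lost with thinned reads. The exons of ADSL share 1344 bases, 18.9% of their length, with those of AL022238.4 on the same strand, for which no reads were counted. The effect of this overlap on the level of ADSL was not tested.

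ATIC (ENSG00000138363; chromosome 2, 215311817 to 215349773, forward strand) adds the second formyl group and closes the ring to give IMP. It held 12037 and 11909 normalized reads with BCAA and 11848.5 and 11799 without in 769-P, and 6501 and 6373 with BCAA and 6952 and 6786 without in CAKI-1. These were the smallest shifts among the 10 in each line. The log2 fold change was 0.02 (95% CI -0.07 to 0.11, adjusted p = 0.77) in 769-P, where it turned to -0.047 with quantile normalization and -0.011 with median centring, and -0.09 (95% CI -0.21 to 0.03, adjusted p = 0.28) in CAKI-1.

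IMPDH2 (ENSG00000178035; chromosome 3, 49024325 to 49029408, reverse strand), the dehydrogenase that sets the rate of guanine nucleotide synthesis, was lower with BCAA in both lines. It held 5113 and 5261 normalized reads with BCAA and 6362 and 6297 without in 769-P. In CAKI-1 it held 11742 and 12113 with BCAA and 16359 and 15784 without. Libraries without BCAA were the higher pair in each line, with tight replicates. IMPDH2 had a log2 fold change of -0.29 (SE 0.05, adjusted p = 3.0e-04) in 769-P and -0.43 (SE 0.05, adjusted p = 2.6e-04) in CAKI-1.

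GMPS (ENSG00000163655; chromosome 3, 155870536 to 155944026, forward strand), the glutamine-using enzyme that makes GMP in the next step, moved the other way. Its 769-P libraries held 9096 and 9036 normalized reads with BCAA and 6004 and 5999.6 without. Its CAKI-1 libraries held 6272 and 6084 with BCAA and 5544 and 5502.5 without. The pairs were tight in both lines, and the distance between them was large in 769-P alone. A processed pseudogene, GMPSP1, held up to 909 reads in a 769-P library and 550 in a CAKI-1 library. Adding its reads to GMPS changed the call in neither line. GMPS rose by a log2 fold change of 0.59 (SE 0.04, adjusted p = 4.1e-07), or 1.51-fold, in 769-P. In CAKI-1 its value was 0.16 (95% CI 0.04 to 0.28, adjusted p = 0.065), and it was called with a filter at a mean of 10, with the spread of all 8 libraries, and without CAKI-1 with BCAA replicate 2 (0.18, adjusted p = 0.019 with the spread of the other 7 libraries).

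CAD (ENSG00000084774; chromosome 2, 27217390 to 27243943, forward strand) carries the first steps of pyrimidine synthesis in 1 large protein. In 769-P it held 9070.5 and 8304 normalized reads with BCAA and 10688 and 10941 without, so that the libraries with BCAA were the lower ones. In CAKI-1 it held 4955 and 4361 with BCAA and 3688 and 4132 without, so that they were the higher ones, although 4361 and 4132 lay close together. CAD had a log2 fold change of -0.32 (SE 0.05, adjusted p = 2.6e-04) in 769-P and 0.25 (SE 0.08, adjusted p = 0.041) in CAKI-1. The CAKI-1 call held under 8 alternatives and was lost under 14, with values between 0.16 and 0.34. It was 0.16 (adjusted p = 0.16) without CAKI-1 with BCAA replicate 1 and 0.17 (adjusted p = 0.18) without CAKI-1 without BCAA replicate 1, both with the spread of the other 7 libraries.

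UMPS (ENSG00000114491; chromosome 3, 124730366 to 124749273, forward strand) joins orotate to PRPP and removes its carboxyl group to give UMP. It held 3704 and 3656.5 normalized reads with BCAA and 2292 and 2429 without in 769-P, and 2082 and 2014.5 with BCAA and 1562 and 1706 without in CAKI-1. Every library with BCAA lay above those without in its line. UMPS rose by a log2 fold change of 0.64 (SE 0.05, adjusted p = 1.7e-06) in 769-P and of 0.33 (SE 0.07, adjusted p = 0.0081) in CAKI-1, the latter call being lost with quantile normalization.

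**Figure D2:**
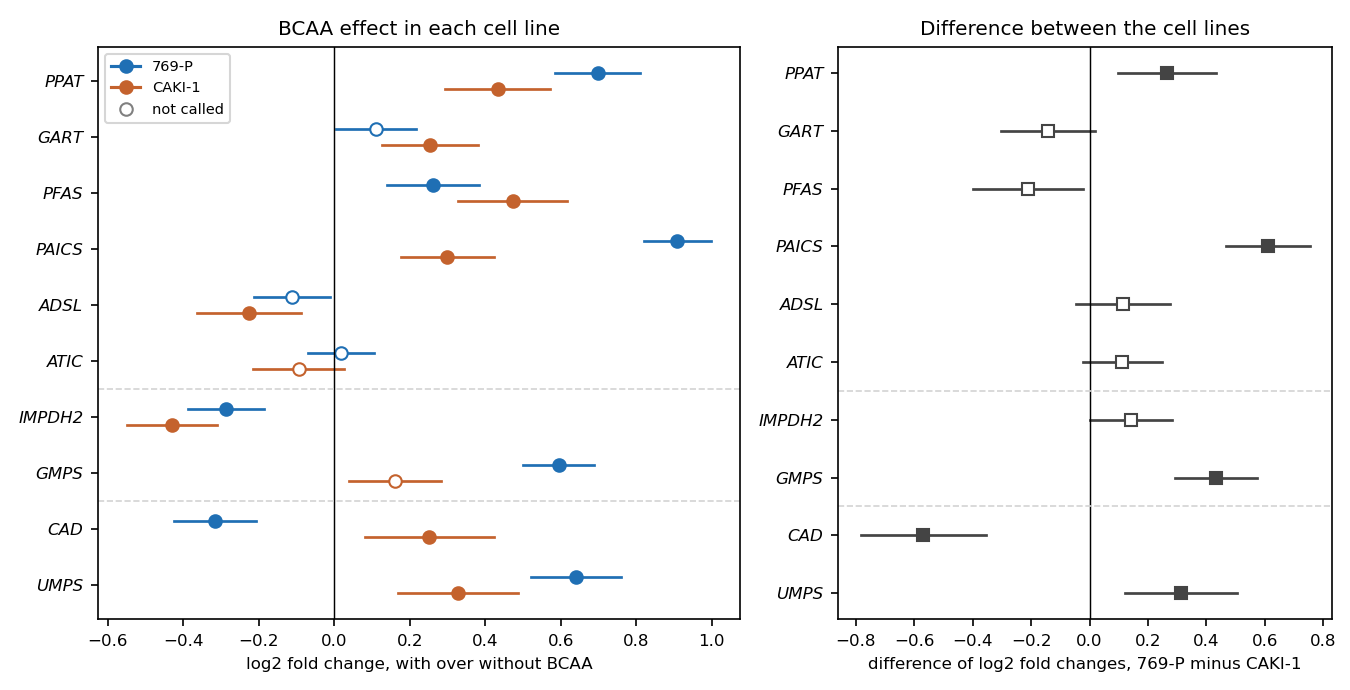
Left, log2 fold change with over without BCAA of each gene with its 95% CI in 769-P and CAKI-1, filled where called with limma at an adjusted p of 0.05. Right, the difference between the lines with its 95% CI, in the same order (IMP, GMP and UMP branches parted by dashed lines). PAICS stands at 0.91 and 0.30, IMPDH2 below 0 in both lines, and CAD on opposite sides of 0.

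Whether the lines responded differently was tested with limma as an interaction over all 8 libraries and 19406 genes. PAICS (difference of log2 fold changes 0.61, SE 0.07, adjusted p = 2.5e-05), GMPS (0.43, SE 0.06, adjusted p = 3.2e-04), UMPS (0.31, SE 0.09, adjusted p = 0.022) and PPAT (0.26, SE 0.08, adjusted p = 0.026) went further up in 769-P. CAD went further down there (-0.57, SE 0.10, adjusted p = 0.0011). These are 4 of 10 further up, against 10.9% of all genes tested, and 1 of 10 further down, against 10.1%. With the replicate number as a block, PPAT was no longer called and 3 of the 10 were further up. The PPAT call was lost under 9 of the 21 alternatives and the UMPS call under 6. With 1 library left out, the differences ranged from 0.23 to 0.30 for PPAT and from 0.25 to 0.38 for UMPS. The PAICS difference was called under all 21 alternatives.

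For the other 5 the difference did not pass the test. It was -0.14 for GART (95% CI -0.30 to 0.02), -0.21 for PFAS (-0.40 to -0.02), 0.11 for ADSL (-0.05 to 0.27), 0.11 for ATIC (-0.02 to 0.25) and 0.14 for IMPDH2 (0.0021 to 0.28), with adjusted p-values between 0.11 and 0.32. The intervals for PFAS and IMPDH2 lie wholly on the side of a larger response in CAKI-1, but neither difference passed after adjustment over all genes tested. Those for GART, ADSL and ATIC reach both sides.

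Levels of different genes were compared as normalized reads per kilobase of exon, over all exons of a gene. In 769-P ATIC was the highest, with a mean of 3029 over the 4 libraries, followed by IMPDH2 (2076.5), PAICS (1913), CAD (1158), GART (1004.5), GMPS (848), ADSL (837), PFAS (657), PPAT (589) and UMPS (398.5). ATIC stood clear of IMPDH2, PAICS clear of CAD, and ADSL clear of PFAS, and all other neighbours overlapped in their ranges over the libraries. In CAKI-1 IMPDH2 led with a mean of 5049, well clear of PAICS (1731) and ATIC (1694), which overlapped. GART (1090.1) stood alone below them, GMPS (658.5), PPAT (555), CAD (509), ADSL (504) and PFAS (435.5) overlapped each with the next, and UMPS (243) was the lowest, as in 769-P. With the longest transcript as the length, 4 of the 10 kept their rank in each line. The tables were normalized separately for the lines, so the levels are not compared between them.

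**Figure D3:**
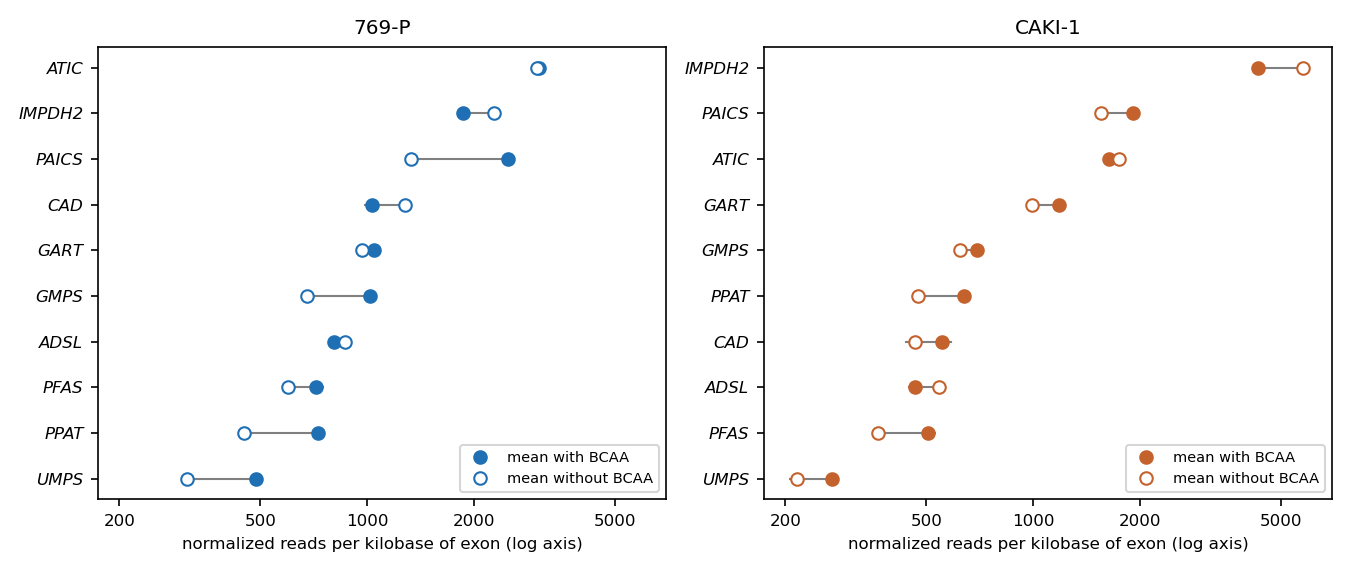
Mean normalized reads per kilobase of exon (log axis) of the 10 genes in each line, filled with BCAA and open without, ordered by the mean over the 4 libraries, with the range over the libraries as a grey line. IMPDH2 tops the order in CAKI-1 at 4301 with BCAA and 5796 without, and UMPS is the lowest in both lines.

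Ratios of neighbouring enzymes within a library do not depend on its depth or size factor, and are given per kilobase as a description chosen after the values were seen. The ratio of CAD to UMPS, the first and last pyrimidine enzymes, was 2.20 and 2.04 with BCAA in 769-P and 4.20 and 4.05 without. In CAKI-1 it was 2.14 and 1.95 with BCAA and 2.13 and 2.18 without. The 769-P libraries without BCAA thus stood apart from the other 6, which lay between 1.95 and 2.20. For IMPDH2 and its homologue IMPDH1 the ratio was 4.92 and 5.62 with BCAA and 6.70 and 6.30 without in 769-P, and 3.50 and 3.59 with BCAA and 5.99 and 5.90 without in CAKI-1, so that libraries without BCAA were the higher ones in both lines. The ratio of PAICS to PPAT was 3.43 and 3.42 with BCAA and 2.92 and 3.0 without in 769-P, which did not overlap, and 3.14 and 2.86 with BCAA and 3.44 and 3.14 without in CAKI-1. Summed over the 10 genes, reads made up 0.1665% and 0.1643% of the library with BCAA and 0.138% and 0.1378% without in 769-P, and 0.1656% and 0.1648% against 0.1576% and 0.1556% in CAKI-1.

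**Figure D4:**
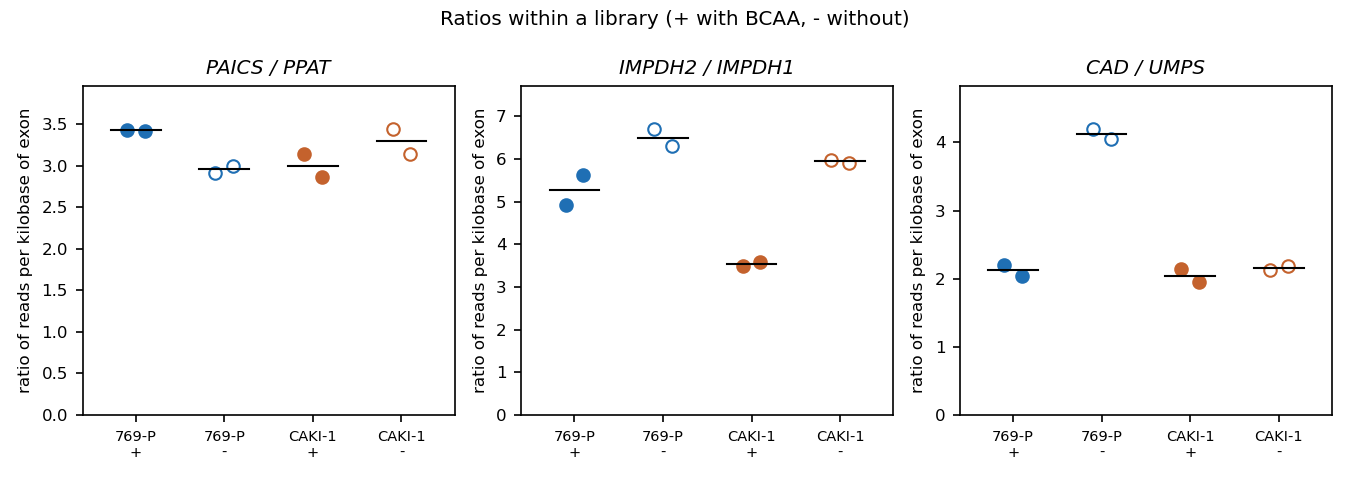
Ratios of reads per kilobase of exon within each of the 8 libraries (linear axes from 0), filled with BCAA and open without, with the mean of each group as a bar. The CAD to UMPS ratio is 4.05 and 4.20 in 769-P without BCAA and at most 2.20 elsewhere, and the PAICS to PPAT ratio spans 2.86 to 3.44.

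The other enzymes of the same routes were DHODH, which sits between CAD and UMPS in mitochondria, IMPDH1, the adenylosuccinate synthases ADSS and ADSSL1, which start the branch to AMP, and the CTP synthases CTPS1 and CTPS2. The counts of this and the following lists stand beside 20.3% higher and 18.2% lower over all genes tested in 769-P and 10.8% and 9.05% in CAKI-1. Of these 6, 3 were higher and 0 lower in 769-P, and 2 were higher and 0 lower in CAKI-1 with limma, and the counts were the same at an unadjusted p below 0.05 and with edgeR and DESeq2 on the recovered reads. CTPS1 rose in both, by a log2 fold change of 0.44 (adjusted p = 1.6e-05) in 769-P and 0.55 (adjusted p = 2.1e-04) in CAKI-1. CTPS2 rose in 769-P, with 0.40 (adjusted p = 4.2e-04), and had a value of -0.11 in CAKI-1 (adjusted p = 0.48). ADSS rose in 769-P, with 0.20 (adjusted p = 0.005), and had -0.10 in CAKI-1 (adjusted p = 0.25).

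IMPDH1 rose in CAKI-1, from 3609 and 3535 normalized reads without BCAA to 4435 and 4462 with it (log2 fold change 0.32, adjusted p = 0.0026), the reverse of IMPDH2. In 769-P it held 1372 and 1236.5 with BCAA and 1253 and 1321 without, which overlapped. DHODH held 767 and 736 normalized reads with BCAA and 729 and 778 without in 769-P, and between 660.5 and 677 in the 4 libraries of CAKI-1, with log2 fold changes of 0.00 in both. ADSSL1, the muscle form, held between 20.4 and 58.4 and was not called (-0.50 and -0.44).

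PRPP is a substrate of PPAT, UMPS and the salvage enzymes that act on free bases, such as HPRT1 and APRT. Of the 4 PRPP supply genes tested in each line, 3 were higher in 769-P and 2 in CAKI-1, and 0 were lower in either with limma, edgeR or DESeq2 (1 was lower in CAKI-1 at an unadjusted p below 0.05). PRPS1, a PRPP synthetase, held 5955 and 5608 normalized reads with BCAA and 2647 and 2599.9 without in 769-P, and 4882 and 4457 against 2659 and 2764 in CAKI-1. Both pairs were far apart, with log2 fold changes of 1.14 (adjusted p = 8.4e-09) and 0.78 (adjusted p = 1.6e-05). PRPS2, its close homologue, rose by 0.80 (adjusted p = 3.2e-07) and 0.37 (adjusted p = 0.0015). PRPSAP2, a regulatory partner, had 0.19 in 769-P (adjusted p = 0.049), a call that was lost with DESeq2 on the recovered reads.

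Genes that supply the one-carbon units for GART and ATIC went both ways. In 769-P 2 of the 9 reported were higher and 4 lower, and in CAKI-1 2 were higher and 1 lower with limma, against 2 lower there with edgeR, with DESeq2 and at an unadjusted p below 0.05. Their median log2 fold change was -0.16 in 769-P and -0.08 in CAKI-1. The 2 that rose act in the cytosol and were the same in both lines. SHMT1, which moves a carbon from serine to tetrahydrofolate, rose by a log2 fold change of 1.53 (adjusted p = 6.9e-09) in 769-P and 0.76 (adjusted p = 1.4e-04) in CAKI-1, and MTHFD1, which makes the formyl folate used by GART and ATIC, by 0.58 (adjusted p = 1.3e-06) and 0.41 (adjusted p = 7.0e-04).

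Of the mitochondrial enzymes MTHFD2, SHMT2 and MTHFD1L fell in 769-P, while MTHFD2L (0.18) and ALDH1L2 (-0.08) were not called. The fourth gene to fall, FPGS (-0.22, adjusted p = 0.0041), adds glutamate to folates. MTHFD2 held 2022 and 1998 normalized reads with BCAA and 6388 and 6648 without in 769-P (log2 fold change -1.70, adjusted p = 3.6e-10). In CAKI-1 it held 9140.0 and 9808.5 with BCAA and 9803 and 10215 without, which overlapped (-0.08, adjusted p = 0.4). SHMT2 had -1.01 (adjusted p = 2.0e-09) in 769-P and -0.17 (adjusted p = 0.055) in CAKI-1, where it was called lower with edgeR, DESeq2, median centring, a filter at a mean of 10 and the spread of all 8 libraries, and MTHFD1L fell in both, with -1.02 (adjusted p = 6.9e-09) and -0.25 (adjusted p = 0.0078). The differences between the lines passed the interaction test for MTHFD2 (-1.62), SHMT2 (-0.85) and MTHFD1L (-0.77).

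**Figure D5:**
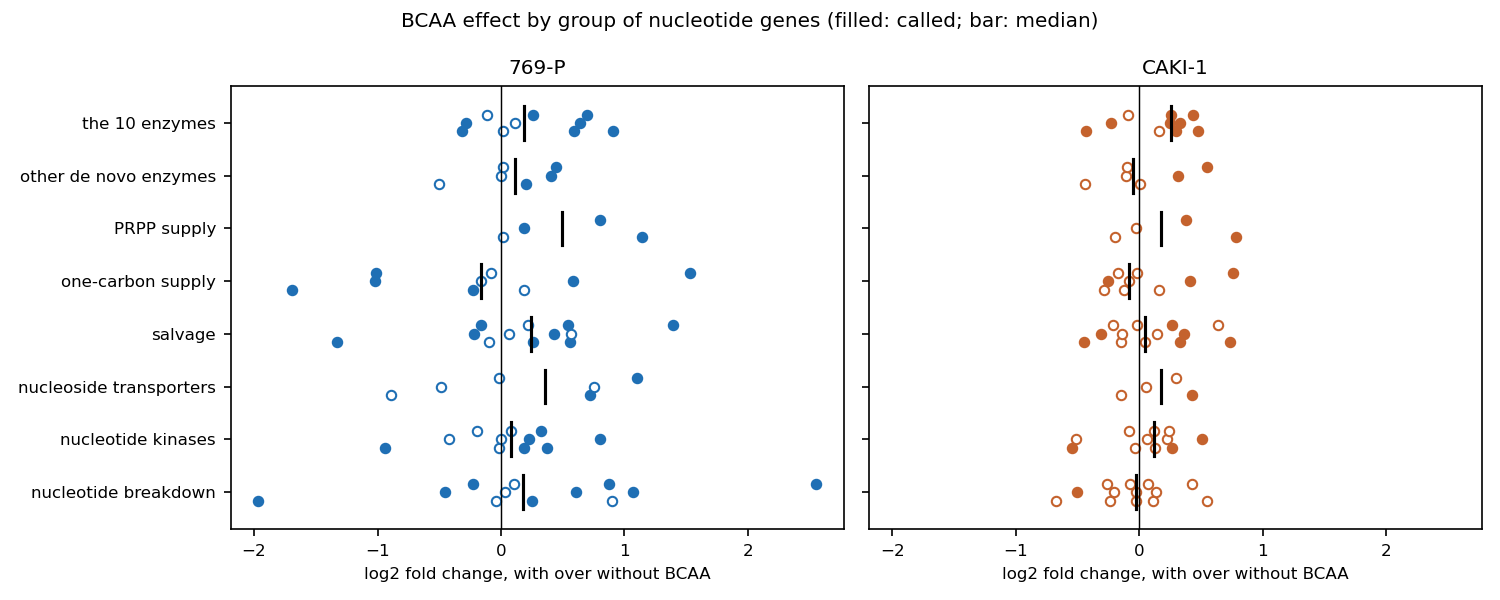
Log2 fold change with over without BCAA of every gene reported in 8 groups of nucleotide genes in each line, filled where called with limma at an adjusted p of 0.05, with the median of the group as a bar. In 769-P the one-carbon genes spread from -1.70 to 1.53, while the 10 enzymes lie between -0.32 and 0.91.

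Of the salvage genes, 5 of 12 were higher and 3 lower in 769-P, and 4 of 13 were higher and 2 lower in CAKI-1. Among genes with a mean of at least 1000 the shares were 38.6% and 31.1% in 769-P and 23.2% and 16.8% in CAKI-1. The salvage counts lay near these shares, but not all salvage genes reach that level. In CAKI-1 PNP, UPP1 and UCKL1, all called, lay below it, so the shares are not matched to the list in level. HPRT1, which returns hypoxanthine and guanine to IMP and GMP, rose by a log2 fold change of 1.39 (adjusted p = 2.1e-08) in 769-P and 0.36 (adjusted p = 0.013) in CAKI-1, where the call was lost under 10 of 22 alternatives, thinned reads among them, and without either replicate 2 with the spread of the other 7 libraries. PNP, which frees those bases from nucleosides, rose by 0.54 (adjusted p = 5.4e-05) and 0.74 (adjusted p = 2.6e-04), and adenosine kinase (ADK) by 0.26 (adjusted p = 0.0046) and 0.33 (adjusted p = 0.0054). UPP1, the uridine phosphorylase, fell in both, with -1.33 (adjusted p = 1.1e-08) and -0.45 (adjusted p = 0.018), as did UCKL1, with -0.22 (adjusted p = 0.048) and -0.31 (adjusted p = 0.036), although both UCKL1 calls were lost with DESeq2 on the recovered reads. ADA, adenosine deaminase, rose in 769-P (0.56, adjusted p = 0.038, not called with DESeq2) and had -0.22 in CAKI-1 (adjusted p = 0.088), and APRT, which salvages adenine, had -0.16 in 769-P (adjusted p = 0.02) and -0.02 in CAKI-1 (adjusted p = 0.87), the 769-P call being lost under 11 of 22 alternatives, thinned reads among them, and without any 1 of the 4 libraries.

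Among the nucleoside transporters, 2 of 6 were higher in 769-P and 1 of 4 in CAKI-1, with 0 lower in either with limma, at an unadjusted p below 0.05 or with edgeR or DESeq2. SLC29A1, the main equilibrative transporter, rose by a log2 fold change of 0.72 (adjusted p = 2.5e-06) and 0.42 (adjusted p = 0.0037), and SLC29A3 rose in 769-P by 1.10 (adjusted p = 1.5e-04) and had -0.15 in CAKI-1 (adjusted p = 0.55). Of the 11 nucleotide kinases reported, 5 were higher and 1 lower in 769-P, and 2 were higher and 1 lower in CAKI-1. NME1, a nucleoside diphosphate kinase whose reads may be shared with the overlapping and near-identical NME2, rose by 0.81 (adjusted p = 7.0e-07) and 0.51 (adjusted p = 6.1e-04), and NME4 by 0.37 (adjusted p = 2.6e-04) and 0.26 (adjusted p = 0.019). AK5, an adenylate kinase, was called in opposite directions, with 0.23 (adjusted p = 8.6e-04) in 769-P and -0.55 (adjusted p = 0.0095) in CAKI-1, the first not called with a spread from all 8 libraries.

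The mitochondrial kinase AK4 fell in 769-P (-0.94, adjusted p = 2.4e-07) and had 0.24 in CAKI-1 (adjusted p = 0.077). AK3 rose in 769-P (0.32, adjusted p = 0.0013). Of the nucleotide breakdown genes 5 of 12 were higher and 3 lower in 769-P, and 0 of 13 higher and 1 lower in CAKI-1 with limma, and the difference between these counts was not tested. At an unadjusted p below 0.05 there were 0 higher and 4 lower in CAKI-1, with edgeR 0 and 2, and with DESeq2 0 and 1. The 769-P genes included DPYD, which degrades uracil (0.88, adjusted p = 4.6e-07), NT5E, the cell surface nucleotidase (0.61, adjusted p = 2.2e-07), NT5C3A (0.25, adjusted p = 0.0075), AMPD3, an AMP deaminase (-1.96, adjusted p = 1.0e-05), NT5C2 (-0.46, adjusted p = 1.0e-04) and NT5C3B (-0.23, adjusted p = 0.015). The CAKI-1 gene was GMPR2, which turns GMP back to IMP, with -0.50 (adjusted p = 9.8e-04) and a value of 0.03 in 769-P (adjusted p = 0.74). NT5C3A had -0.26 in CAKI-1 (adjusted p = 0.052). It was called lower there with edgeR, median centring, a filter at a mean of 10 and the spread of all 8 libraries.

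MYC and ATF4, which are known to raise the transcription of several of these enzymes, were lower with BCAA in both lines. MYC held 8188 and 7749 normalized reads with BCAA and 13063 and 13648 without in 769-P, and 10640.2 and 11142 with BCAA and 12834 and 13424 without in CAKI-1. ATF4 held 15887 and 16581 with BCAA and 32276 and 31460.5 without in 769-P, and 16462 and 17194 with BCAA and 22678 and 22594 without in CAKI-1. The groups did not overlap for either gene. The log2 fold change of MYC was -0.75 (adjusted p = 1.1e-07) and -0.27 (adjusted p = 0.0056), that of ATF4 -0.97 (adjusted p = 3.9e-09) and -0.43 (adjusted p = 2.5e-04). Of the 7 regulators listed, 3 were higher and 4 lower in 769-P, and of the 6 tested in CAKI-1 0 were higher and 2, MYC and ATF4, were lower with limma, as also at an unadjusted p below 0.05 and with edgeR and DESeq2.

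Over the 8 libraries, each centred within its line, UMPS and PPAT followed the mean of the 10 most closely (Pearson r 0.99 each), then PAICS (0.97), GMPS (0.96), PFAS (0.85) and GART (0.77). ADSL (-0.77) and IMPDH2 (-0.90) ran against it. CAD (-0.27) and ATIC (-0.30) had weak negative values over both lines together. Their direction differed by line, with log2 fold changes in 769-P and CAKI-1 of -0.32 and 0.25 for CAD and 0.02 and -0.09 for ATIC. The correlations describe 8 libraries in which condition is the main source of difference, and each gene is part of the mean. Among 10871 other genes with a mean of at least 100 in both lines, those most like the mean of the 10 were CACUL1, DOLPP1, SAFB2, TRAF2 and CCDC134, with r between 0.9959 and 0.9972.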

How the data were processed

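The authors deposited, in 1 table per cell line, a signal made by dividing each gene's reads by its library's size factor. The submitters' processing notes name Trim Galore, TopHat2 2.1.0, SAMtools 1.3.1, HTSeq 0.6.0, DESeq2 and build hg38. All values (100%) were whole multiples of 1 read within a tolerance of 1e-06, and the factors (0.777 to 1.32) equalled median-of-ratios factors within each table. Identifiers were matched to symbols through GENCODE 29 (25032 and 23881 matched).

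Genes with a mean of at least 1 were tested on log2(value + 1) with limma 3.58.1 in R 4.3.3 (lmFit, eBayes with trend), within each line, with Benjamini-Hochberg adjustment over all genes tested and a threshold of 0.05. Fold changes are on this scale, which understates those of low genes. The difference between lines was the interaction term over 8 libraries. An exact two-sided permutation test of 2 against 2 cannot go below p = 0.333 and was not used. Replicates differed by more than sampling noise (chi-square per degree of freedom 3.36 to 12.9) and counted separately. Per-kilobase levels used the union of exons.

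The genes and lists were chosen with earlier results of these data known, and 2 listed genes are not reported here. The named genes were the 10 enzymes, the 6 others of their routes, MYC, ATF4, up to 3 called higher and 3 called lower per line in each other list (mean of at least 100), and the 5 most alike. Alternatives changed the pseudocount, filter, scaling, test (edgeR 4.0.16 and DESeq2 1.42.0 on recovered reads), depth, block, spread, threshold and libraries. Adding pseudogene reads, and leaving a library out with the spread of the other 7, were added after seeing the data. Scripts were tested on simulated data.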

Additional observations from a re-analysis of the deposited data

Results flagged for a closer look

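With 2 libraries per group, no library could be tested for standing apart from its group. For 29 of the 47 named genes the BCAA effect differed between the cell lines by the interaction test, each value being the log2 fold change in 769-P minus that in CAKI-1. Among the 10 enzymes these were PAICS (0.61), GMPS (0.43), UMPS (0.31), PPAT (0.26) and CAD (-0.57), and among the other enzymes of their routes CTPS2 (0.51), ADSS (0.31) and IMPDH1 (-0.30). For the supply of PRPP they were PRPS2 (0.43) and PRPS1 (0.36). For one-carbon supply they were SHMT1 (0.77), MTHFD1L (-0.77), SHMT2 (-0.85) and MTHFD2 (-1.62).

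Among salvage and transport genes they were HPRT1 (1.03), ADA (0.77), UPP1 (-0.88) and SLC29A3 (1.25). Kinases among them were AK5 (0.78), NME1 (0.30) and AK4 (-1.18). For breakdown they were DPYD (0.74), GMPR2 (0.54), NT5C3A (0.51), NT5E (0.50), NT5C2 (-0.43) and AMPD3 (-1.76). MYC (-0.48) and ATF4 (-0.55) were also among them. Over all genes tested, 21.1% differed between the lines, but 29 of the 47 were named because they were called in a line, so the count is not comparable with that share. The PPAT difference was no longer called under 9 of 21 alternatives and the UMPS difference under 6. The difference of NME1 was no longer called with thinned reads, quantile normalization or the replicate block (12 of 21 alternatives, adjusted p up to 0.14), and that of IMPDH1 with the replicate block and 7 of the 8 libraries left out in turn (10 of 21 alternatives, adjusted p up to 0.13). Depth goes together with condition in 769-P and not in CAKI-1, and thinning all libraries to 30979773 reads ended the call of NME1 among these differences.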

How the results depend on the processing

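The replicate numbers showed no sign of pairing the libraries (r of same-numbered deviations -0.088 in 769-P and 0.061 in CAKI-1). With 2 libraries per group this cannot settle whether they do. With the replicate block, 5 of the 10 enzymes were higher and 2 lower in 769-P, 5 higher and 2 lower in CAKI-1, and 3 further up and 1 further down in 769-P. Requiring a fold of at least 1.5 left 0 lower in 769-P, 0 higher and 0 lower in CAKI-1, and 1 further up and 0 further down. An adjusted p of 0.01 gave 1 lower in CAKI-1 and 2 further up. Quantile normalization gave 3 higher in CAKI-1, and thinned reads 1 lower there. Leaving out 1 library gave 0 to 2 lower in 769-P, 0 to 7 higher and 0 to 2 lower in CAKI-1, 2 to 4 further up and 1 to 2 further down. Every count of 0 in CAKI-1 with a library left out came from fits within the line with 1 residual degree of freedom, where the lone library is assumed to vary like the other group, and with the spread of the other 7 libraries 5 to 7 were higher and 2 lower. With the longest transcript 4 genes kept their rank in each line. Among the named genes, quantile normalization ended the calls of ADSS, ADA, PRPSAP2 and UCKL1 in 769-P. In CAKI-1 it ended those of GART, CAD, UMPS, HPRT1, UPP1, UCKL1, NME4 and AK5.

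Signs turned for values near 0. In 769-P these were ATIC (-0.0467 with quantile normalization, -0.0108 with median centring), IMPDH1 (-0.047 and -0.011), GMPR2 (-0.0264 with quantile normalization) and DHODH (0.0188 with edgeR). In CAKI-1 DHODH turned with quantile normalization (-0.0127), median centring (-0.0079), edgeR (-0.0096) and thinning (-0.0063), and the difference of DHODH with edgeR (0.019). With 1 library left out, 769-P values ranged from -0.0572 to 0.0931 for IMPDH1, -0.012 to 0.0799 for GMPR2 and -0.05 to 0.0431 for DHODH. CAKI-1 values ranged from -0.0152 to 0.0201 for DHODH, -0.11 to 0.0633 for APRT, -0.0654 to 0.0167 for PRPSAP2, -0.0643 to 0.28 for NT5E and -0.0158 to 0.29 for DPYD. Differences ranged from -0.0524 to 0.0407 for DHODH, -0.24 to 0.12 for ADSSL1 and -0.017 to 0.19 for UCKL1. The causes were not tested.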

Other observations

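Some genes of the lists fell below the level set for naming and are given because their values were seen. XDH, xanthine dehydrogenase, held 70 and 41 reads with BCAA and 9 and 3 without in 769-P, and 6 and 19 with BCAA and 11 and 19 without in CAKI-1. GDA, guanine deaminase, held 51 and 71 reads with BCAA and 21 and 16 without in 769-P. MYCN held 10 and 17 reads with BCAA and 1 and 2 without in 769-P and was not listed for CAKI-1. Each of these had a higher normalized value with BCAA in 769-P, from few reads.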
